A study of Oryza sativa with 80 samples.

Results

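Of the 42189 genes counted in mature rice leaves, 4 are loci that earlier genetic work tied to heat tolerance in rice. They were taken by their locus IDs, and the choice was made with earlier results of these data known. TT1 (LOC_Os03g26970) encodes an alpha 2 subunit of the proteasome, TOGR1 (LOC_Os03g46610) an RNA helicase, TT3.1 (LOC_Os03g49900) an E3 ubiquitin ligase and ERECTA (LOC_Os06g10230) a receptor-like kinase. Each was followed across 4 treatments and 5 positions along the leaf blade. The deposited files give these loci as IDs only, and the RefSeq gene table used here matched none of the 4, so the pairing of names with IDs was not checked, that of ERECTA included, and no position or sequence is given.

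The study measured poly(A) RNA in the third leaf, fully grown, of Oryza sativa seedlings and asked, by its title, how drought that limits growth alters the response of leaves to heat. D40 leaves grew in soil at 1.5 g water per g dry soil and received a heat shock of 30 min at 40 °C, W40 leaves grew at 3 g/g and received the same heat shock, D30 leaves grew at 1.5 g/g and were collected at 30 °C, and W30 leaves grew at 3 g/g and were collected at 30 °C. Drought leaves were taken at 12 days and well-watered leaves at 10 days, so that soil water and leaf age cannot be told apart. No cultivar, allele or transgene is given in the sources used here. Each treatment had 4 replicates, each a pool of 3 leaves cut into matched segments, of which segment 2 (nearest the base) to segment 6 (nearest the tip) were sequenced, giving 80 libraries from 16 leaf pools. The labels put 7 pools in batch 1 and 9 in batch 2, and only 1 of the 4 W40 pools in batch 1.

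These genes stand at different points of the cell's handling of heat. The proteasome degrades proteins tagged with ubiquitin, and TT1 was mapped as a gene whose alleles differ in how well rice clears denatured proteins during heat. TT3.1 tags proteins for degradation and was mapped in rice as part of a module that links the plasma membrane to the chloroplast under heat. TOGR1 is a DEAD-box helicase that keeps the processing of ribosomal RNA precursors going at high temperature and so sustains growth. ERECTA, best known from Arabidopsis, is a receptor that shapes organ growth and stomatal patterning, and raising its level made rice and other plants more heat tolerant.

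Libraries held between 53398019 and 128636996 counts, and leaf pools between 310494791 and 513401279. All 5 leaf mesophyll marker loci were abundant, with summed levels of 36948 to 72251 CPM (counts scaled to a common library total) in D40 pools, 45093 to 73832 CPM in W40 pools, 36676 to 68915 CPM in D30 pools and 60774 to 66227 CPM in W30 pools, and the 1 meristem homeobox locus was at 0 in all 16 pools. All 12 of 12 heat shock loci entered by hand were higher in both heat comparisons by edgeR's quasi-likelihood test with Benjamini-Hochberg adjustment. Of all genes, 16.6% were called higher with heat in drought leaves and 16.3% in well-watered leaves. The list of these 12 loci was made with earlier results of these data known, so the count is no independent check of the heat shock. Together these loci took 2.62 ± 2.22% of the counts in D40 pools, 2.06 ± 0.947% in W40 pools, 0.0750 ± 0.0304% in D30 pools and 0.0402 ± 0.00973% in W30 pools (SD, n = 4 pools each).

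In whole leaves, obtained by summing the 5 segments of each pool, TOGR1 rose with heat shock relative to most genes in both drought and well-watered leaves, and TT3.1 rose in well-watered leaves. None of these changes met the threshold with counts scaled to library totals. The TOGR1 call in drought leaves was kept in 4 of 16 refits that left out 1 pool. The TT3.1 change in well-watered leaves was 0.54 in batch 2 and -0.11 in batch 1, which holds 1 W40 pool. TT1 met the threshold in no whole-leaf comparison, and ERECTA was close to undetected. Drought moved no member past the threshold at either temperature. Levels below are CPM scaled by TMM, a scaling to the bulk of genes, and changes are log2 fold changes with their standard error (SE), from a fit with treatment and batch. Because these are bulk samples, fewer cells of a type and less RNA per cell cannot be told apart.

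Per length, 3 of the loci stood at similar moderate levels. Over the 80 libraries the median of the authors' FPKM was 8.33 for TT3.1, 7.36 for TT1 and 6.11 for TOGR1, against 0.00403 for ERECTA. By mean FPKM, TT3.1, TT1 and TOGR1 lay at percentiles 87.5, 86.5 and 84.4 of all genes in that table, and ERECTA lay at percentile 37.9. TT3.1, TT1 and TOGR1 had at least 1194 counts in every library, whereas ERECTA had 0 counts in 36 of 80 libraries.

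TOGR1 stood at 28.3, 34.4, 30.5 and 31.9 CPM in the W40 pools, against 18.8, 22.2, 29.0 and 26.5 CPM in the W30 pools. The ranges overlapped only between batches: in batch 1 the single W40 pool at 28.3 CPM lay above both W30 pools, and in batch 2 the lowest W40 pool at 30.5 CPM lay above the highest W30 pool at 29.0 CPM. The change was 0.31 (SE 0.09, adjusted p = 0.0187, edgeR). Of all 25103 genes tested, 35.1% met the threshold in this comparison, and of the 4 members 2 did, TOGR1 and TT3.1.

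In drought leaves TOGR1 stood at 24.0, 27.5, 30.7 and 34.9 CPM in the D40 pools, against 22.7, 22.1, 25.7 and 27.4 CPM in the D30 pools. Here too the D40 pools lay above the D30 pools within each batch and overlapped with them across batches. The change was 0.25 (SE 0.09, adjusted p = 0.0461), close to the threshold, and TOGR1 was the only 1 of the 4 members called, against 34.4% of all genes. When each of the 16 pools was left out in turn, the call was lost in 12 of the refits, with adjusted p up to 0.133 (without D40 replicate 4). D40 against W30 gave 0.28 (SE 0.09, adjusted p = 0.0212), again for TOGR1 alone among the members and against 46.5% of all genes; this comparison shares its W30 pools with the heat comparison in well-watered leaves.

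The size of these heat changes depended on the scale. When counts were scaled to library totals without TMM, the median change of all genes was -0.32 in drought and -0.28 in well-watered leaves, against -0.05 and -0.08 with TMM. The split of all genes called higher and lower moved with it, to 2209 and 7161 in drought leaves (4171 and 4475 with TMM) and to 2437 and 6475 in well-watered leaves (4098 and 4703 with TMM). On that scale the change of TOGR1 turned to -0.023 (adjusted p = 0.892) in drought leaves and was 0.10 (adjusted p = 0.503) in well-watered leaves. Relative to the median of all genes, it stood at 0.30 in drought leaves on both scales, and at 0.39 in well-watered leaves on both. A change of scale moves all genes by nearly the same amount, so this match is built in and is no separate check. With limma on the authors' FPKM, TOGR1 stood above that median by 0.18 in drought leaves and by 0.25 in well-watered leaves. As a plain share of all counts, TOGR1 averaged 26.6 ± 2.60 CPM in D40 pools against 27.2 ± 3.05 CPM in D30 pools, and 28.4 ± 0.304 CPM in W40 pools against 26.0 ± 3.6 CPM in W30 pools (SD, n = 4 each). TOGR1 thus stood higher relative to the median gene, while its share of all counted reads did not differ beyond the spread between pools.

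TT3.1 stood at 54.8, 68.5, 64.1 and 68.1 CPM in the W40 pools, against 55.8, 62.4, 44.8 and 47.1 CPM in the W30 pools. The W40 pool at 54.8 CPM was the only 1 of batch 1, and it lay below both W30 pools of that batch. The change over both batches was 0.34 (SE 0.12, adjusted p = 0.0332), and with library totals it was 0.14 (adjusted p = 0.427), at 0.43 above the median of all genes on either scale. That match between scales is built in here too. The change also missed the threshold with limma on FPKM (0.032, adjusted p = 0.853, at 0.17 above the median of all genes). In edgeR it did so without a batch term (0.28, adjusted p = 0.146). The same held in edgeR with the batch-corrected counts (0.29, adjusted p = 0.0588), without the low-count filter (0.34, adjusted p = 0.0561) and with the replicate block (0.30, adjusted p = 0.0811). Leaving out any 1 of 5 pools ended the call: adjusted p was 0.119 without W30 replicate 3, 0.103 without W30 replicate 4, 0.0952 without W40 replicate 2, 0.0701 without W40 replicate 3 and 0.0986 without W40 replicate 4. Without W40 replicate 1 the change was 0.55 (adjusted p = 0.000398).

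In drought leaves TT3.1 stood at 67.1, 60.0, 53.9 and 54.4 CPM in the D40 pools, against 59.9, 61.8, 49.6 and 51.8 CPM in the D30 pools. The groups overlapped widely and the change was 0.08 (SE 0.11, adjusted p = 0.621), a value whose sign turned with library totals (-0.19, adjusted p = 0.253) and in the deposited FPKM (-0.13, adjusted p = 0.420). The heat response of TT3.1 differed between drought and well-watered leaves by -0.27 (95% confidence interval -0.61 to 0.08, adjusted p = 0.563). Over both batches no member met the threshold for this interaction, and 0% of all genes did with edgeR, while DESeq2 called 465 and edgeR without W40 replicate 1 called 769. In batch 2 alone the TT3.1 interaction was -0.46 (adjusted p = 0.0272, called), and in batch 1 alone, with 1 W40 pool, it was 0.18 (adjusted p = 0.684). At an unadjusted p of 0.05 the number of members over both batches was also 0, and with DESeq2 it was 0 too.

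TT1 stood at 30.5, 31.1, 31.6 and 32.9 CPM in D40 pools, at 36.6, 30.5, 26.5 and 29.1 CPM in W40 pools, at 27.8, 26.9, 32.0 and 31.2 CPM in D30 pools and at 30.9, 36.5, 32.0 and 31.3 CPM in W30 pools. The 4 treatments overlapped. Its heat difference was 0.10 (95% interval -0.13 to 0.32, adjusted p = 0.507) in drought leaves and -0.08 (-0.31 to 0.15, adjusted p = 0.573) in well-watered leaves; the value in drought leaves was -0.19 with library totals.

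**Figure D1:**
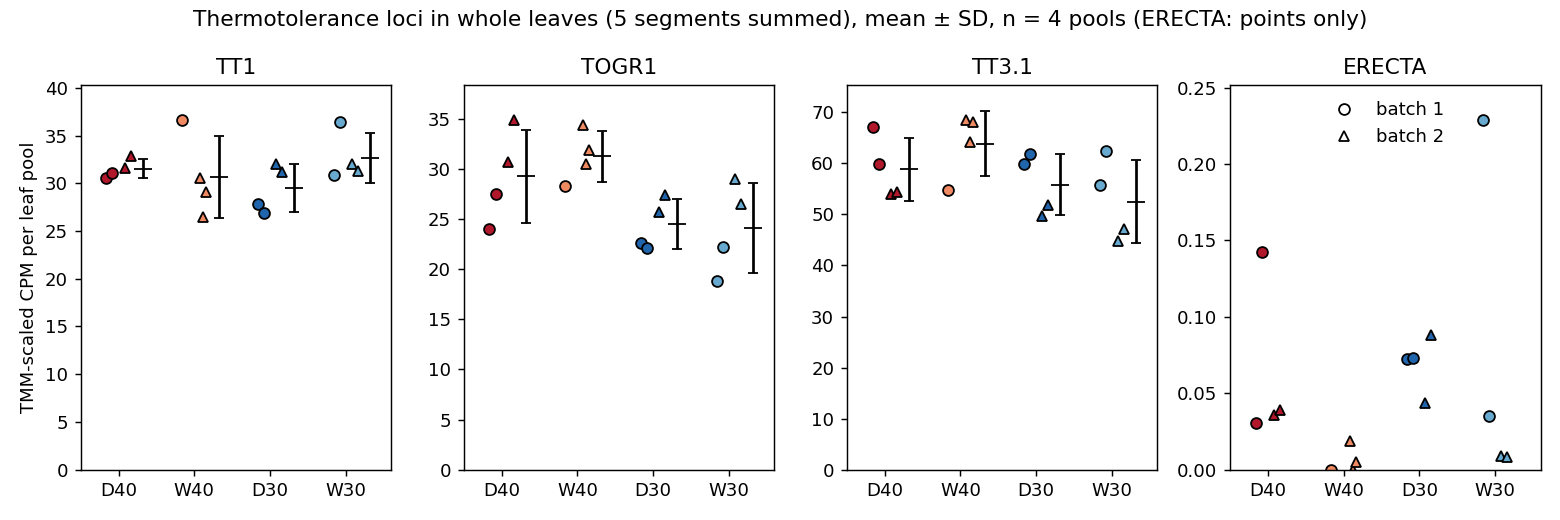
TMM-scaled CPM of each locus in each leaf pool, for D40, W40, D30 and W30, with circles for batch 1 and triangles for batch 2 and, except for ERECTA, mean ± SD beside the points (n = 4 pools). TOGR1 lay higher in the heat-shocked pools within each batch on this scale (24.0 to 34.9 CPM in D40 and 28.3 to 34.4 CPM in W40, against 22.1 to 27.4 CPM in D30 and 18.8 to 29.0 CPM in W30), but its drought-leaf change turned sign with library totals.

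For drought, no change of TOGR1, TT3.1 or TT1 over both batches passed the threshold. ERECTA had too few counts for a fold change to be given, with adjusted p of 0.791 at 30 °C and 0.129 at 40 °C (edgeR). D30 against W30 gave 0.03 (SE 0.09) for TOGR1, 0.09 (SE 0.11) for TT3.1 and -0.15 (SE 0.11) for TT1, with adjusted p of 0.865, 0.655 and 0.416. At 30 °C, 0 of the 4 members met the threshold with edgeR, against 10.3% of all genes. DESeq2 called 0 of the members and 4251 of the 25103 genes tested. At an unadjusted p of 0.05 the number of members was 0, and the share of all genes was not counted. D40 against W40 gave -0.03 (SE 0.09) for TOGR1, -0.18 (SE 0.12) for TT3.1 and 0.03 (SE 0.11) for TT1, with adjusted p of 0.869, 0.321 and 0.854. At 40 °C, 0 of the 4 members met the threshold with edgeR, against 14.1% of all genes. DESeq2 called 0 of the members and 5610 of the 25103 genes tested. In edgeR 1 member (ERECTA) had an unadjusted p under 0.05, and the share of all genes was not counted. The 95% intervals at 30 °C ran from -0.16 to 0.23 for TOGR1, from -0.15 to 0.33 for TT3.1 and from -0.37 to 0.08 for TT1. D40 against W30 gave 0.17 (SE 0.11, adjusted p = 0.232) for TT3.1, a sign that turned with library totals (-0.07), and -0.05 (SE 0.11, adjusted p = 0.723) for TT1.

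**Figure D2:**
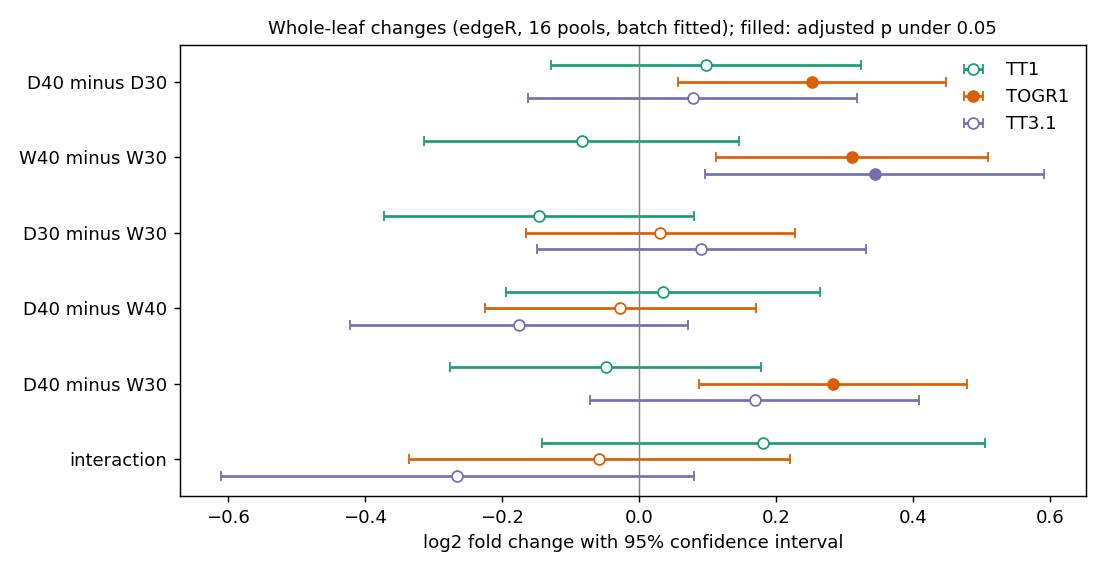
Whole-leaf log2 fold changes of TT1, TOGR1 and TT3.1 with 95% confidence intervals from edgeR on TMM-scaled counts of 16 pools, with filled points for adjusted p under 0.05; the interaction is the heat change in drought leaves minus that in well-watered leaves. Filled points are TOGR1 in both heat comparisons and in D40 against W30, and TT3.1 in W40 against W30; with library totals none of these passed, and TOGR1 in D40 against D30 turned to -0.023.

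The heat response of TT3.1 in well-watered leaves parted by labelled batch. In batch 2 its heat change in well-watered leaves was 0.54 (SE 0.08, adjusted p = 0.000121, where 54.6% of all genes met the threshold), with W40 pools at 64.1 to 68.5 CPM and W30 pools at 44.8 and 47.1 CPM. In batch 1 it was -0.11 (SE 0.11, adjusted p = 0.50, where 21.9% of all genes met the threshold), with the W40 pool at 54.8 CPM and W30 pools at 55.8 and 62.4 CPM. The difference, batch 2 minus batch 1, was 0.65 (SE 0.13, adjusted p = 0.00511), past the threshold for TT3.1 alone of the 4 members and for 23.6% of all genes; with library totals it was 0.63 (adjusted p = 0.0108). It rests on 1 W40 pool in batch 1, whose spread was assumed to be like that of the others. In drought leaves the TT3.1 heat change was 0.09 (SE 0.09) in batch 2 and 0.06 (SE 0.09) in batch 1. There 0 of the 4 members differed between batches with edgeR, against 27.4% of all genes. The number of members at an unadjusted p of 0.05 was also 0, and DESeq2 was not run on this difference. With library totals the drought-leaf difference of TT1 was -0.53 (adjusted p = 0.0102) and that of TT3.1 turned to -0.35 (adjusted p = 0.0546), where the median of all genes was -0.50. Likewise D40 against W40 for TT3.1 was -0.30 (SE 0.08, adjusted p = 0.00738) in batch 2, where 48.7% of all genes met the threshold, and 0.21 (SE 0.11, adjusted p = 0.286) in batch 1, where 2.19% did.

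TOGR1 had heat changes above 0 in both batches on the TMM scale. Its heat change in drought leaves was 0.30 (SE 0.11, adjusted p = 0.0344) in batch 2, where 52.2% of all genes met the threshold, and 0.20 (SE 0.11, adjusted p = 0.195) in batch 1, where 28.7% did. In well-watered leaves it was 0.22 (SE 0.10, adjusted p = 0.0855) in batch 2 and 0.47 (SE 0.13, adjusted p = 0.0259) in batch 1, which rests on 1 W40 pool. With each batch fitted by itself these calls changed over: batch 2 gave 0.31 (adjusted p = 0.0242) and batch 1 gave 0.45 (adjusted p = 0.0848). The difference, batch 2 minus batch 1, was 0.10 (SE 0.15, adjusted p = 0.664) in drought and -0.25 (SE 0.17, adjusted p = 0.309) in well-watered leaves. The levels themselves also parted by batch: in each of the 4 treatments every batch 2 pool had more TOGR1 than every batch 1 pool. For TT3.1 the batch 1 pools were the higher ones in D40, D30 and W30, and the batch 1 pool was the lowest in W40.

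**Figure D3:**
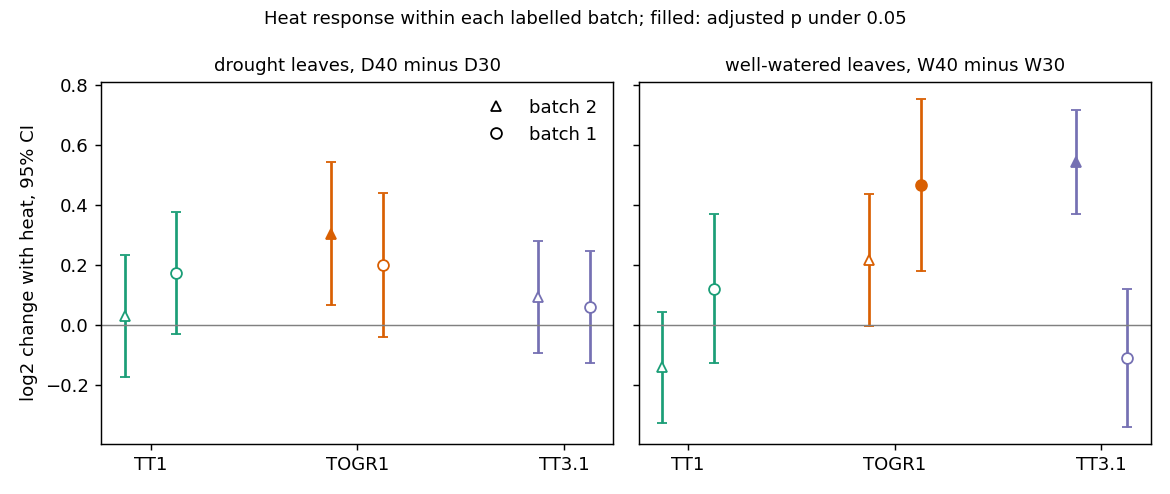
Heat change (log2, TMM scale) of TT1, TOGR1 and TT3.1 within batch 2 (triangles) and batch 1 (circles), for drought leaves and well-watered leaves, with 95% confidence intervals and filled points for adjusted p under 0.05. TT3.1 in well-watered leaves stood at 0.54 in batch 2 and at -0.11 in batch 1, which holds 1 W40 pool.

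Along the blade, TOGR1 lay higher near the tip than near the base. In W30 leaves its level in segment 6 was 23.4, 26.2, 36.3 and 26.8 CPM in pools 1 to 4, against 17.1, 18.8, 25.3 and 23.7 CPM in segment 2 of the same pools. In W40 leaves segment 6 had 31.3, 38.4, 31.9 and 34.3 CPM, against 24.1, 29.5, 30.0 and 29.5 CPM in segment 2. In D40 leaves segment 6 had 26.9, 29.8, 34.1 and 39.1 CPM, against 22.2, 22.5, 30.5 and 34.8 CPM in segment 2. Segment 6 was the higher one in 4 of 4 pools in each of these treatments. In D30 leaves segment 6 had 21.1, 21.3, 28.3 and 30.3 CPM, against 21.5, 21.0, 23.0 and 24.5 CPM in segment 2, higher in 3 of 4 pools.

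With the leaf pool as a block, segment 6 minus segment 2 for TOGR1 was 0.25 in D40 leaves (SE 0.06, adjusted p = 0.00204, where 24.5% of all 23888 genes tested met the threshold) and 0.27 in W40 leaves (SE 0.06, adjusted p = 0.000682, against 35% of all genes). It was 0.15 in D30 leaves (SE 0.06, adjusted p = 0.0798, where no member met the threshold, 1 had an unadjusted p under 0.05 and 18.6% of all genes were called) and 0.41 in W30 leaves (SE 0.06, adjusted p = 1.3e-06, against 31.2% of all genes). The D40 call was lost without D40 replicate 2 (0.18, adjusted p = 0.0688) and in batch 2 alone (0.17, adjusted p = 0.239). In batch 2 alone D30 leaves passed (0.32, adjusted p = 0.0117). All 4 differences were above 0 with every scaling tried. Whether the profile of a gene along the 5 segments depended on treatment was tested separately: 0 of the 4 members met the threshold with edgeR, 0 had an unadjusted p under 0.05 (DESeq2 was not run), and 4.72% of all genes met it. TOGR1 had an adjusted p of 0.322 in that test, and 0.0405 with library totals.

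TT3.1 had no common gradient. In W30 leaves segment 6 had 54.0, 61.7, 29.6 and 42.0 CPM, against 51.3, 59.0, 47.2 and 60.1 CPM in segment 2. Both batch 1 pools were slightly higher in segment 6 and both batch 2 pools lower, and the difference was -0.25 (SE 0.09, adjusted p = 0.0238). It was -0.15 (adjusted p = 0.213) without W30 replicate 3, -0.19 (adjusted p = 0.145) without W30 replicate 4 and -0.18 (adjusted p = 0.141) with library totals. Segment 6 was the higher one in 4 of 4 D40 pools (0.15, SE 0.09, adjusted p = 0.217) and in 2 of 4 W40 pools (0.06, SE 0.09, adjusted p = 0.632), and the lower one in 4 of 4 D30 pools (-0.15, SE 0.09, adjusted p = 0.277). The test of a treatment-dependent profile gave an adjusted p of 0.622 for TT3.1.

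TT1 showed no difference between the ends of the blade that passed the threshold in any treatment, with values from -0.12 (D30, adjusted p = 0.442) to 0.04 (W40, adjusted p = 0.780). In D30 leaves its level in segment 6 was 23.0 and 22.2 CPM in the batch 1 pools and 32.6 and 37.4 CPM in the batch 2 pools, whereas in segment 2 it was 32.1, 32.1, 31.4 and 27.7 CPM in pools 1 to 4. Leaving out D30 replicate 4 gave -0.31 (adjusted p = 0.0447), and leaving out D30 replicate 2 gave 0.01 (adjusted p = 0.989). In batch 2 alone the D30 difference was 0.27 (adjusted p = 0.0925).

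**Figure D4:**
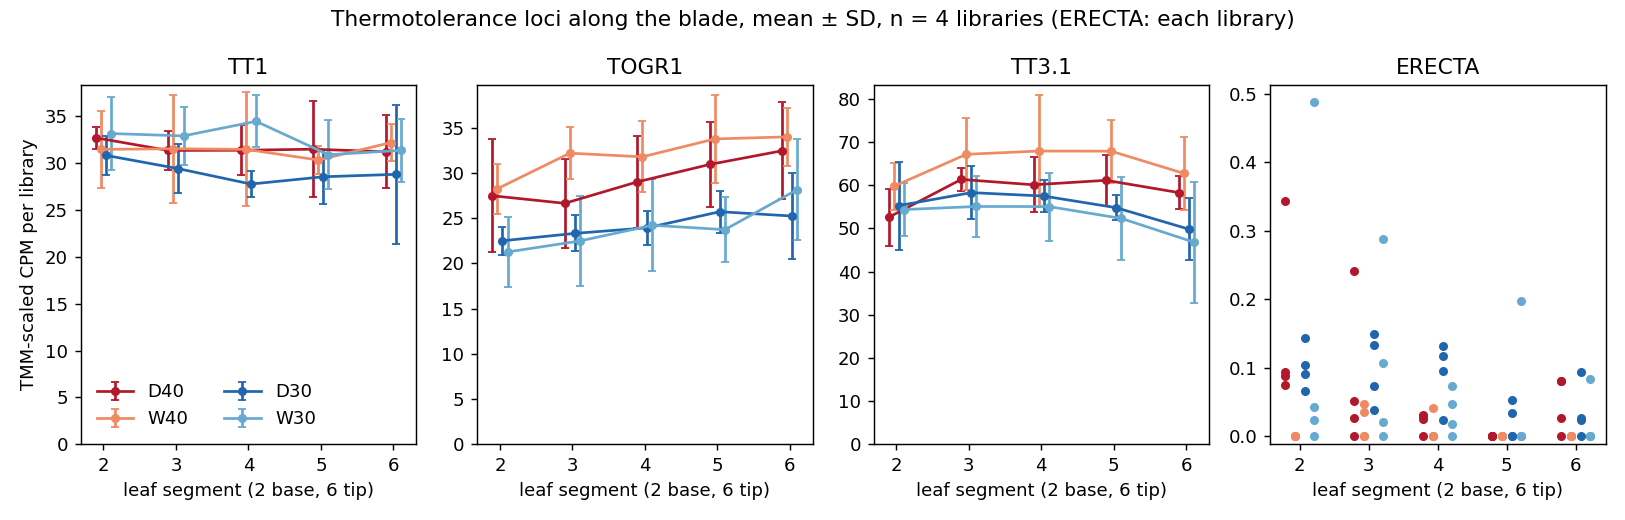
TMM-scaled CPM in leaf segments 2 (base) to 6 (tip) for D40, W40, D30 and W30, as mean ± SD of 4 libraries, and for ERECTA as single libraries. TOGR1 averaged 34.0 CPM in segment 6 and 28.3 CPM in segment 2 of W40 leaves, and 28.2 CPM and 21.3 CPM in the same segments of W30 leaves, while TT3.1 had a mean of 46.8 CPM in segment 6 of W30 leaves.

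Heat responses were also tested in each segment by itself, and there ERECTA passed the filter on low counts in segment 3 only, so that 16 tests could be made for each comparison. In well-watered leaves 4 of the 16 tests passed the threshold, against 28.5% of the tests of all genes over the 5 segments (25.9% to 32.1% by segment). TOGR1 passed in segment 3 (0.37, SE 0.11, adjusted p = 0.0225) and segment 5 (0.38, SE 0.11, adjusted p = 0.0229), and its values in segments 2, 4 and 6 were 0.28, 0.30 and 0.18. TT3.1 passed in segment 5 (0.37, SE 0.12, adjusted p = 0.0369) and segment 6 (0.51, SE 0.17, adjusted p = 0.0406), and its values in segments 2, 3 and 4 were 0.13, 0.25 and 0.30. The segment 5 call of TT3.1 was lost in 6 of the 16 refits that left out 1 pool, with adjusted p up to 0.140 (without W30 replicate 4). Without W30 replicate 1 TOGR1 missed the threshold in segment 3 (adjusted p = 0.0562) and segment 5 (0.0521), and without W30 replicate 4 in segment 5 (0.0748). In segment 6 TT3.1 stood at 51.8, 69.5, 60.7 and 69.2 CPM in W40 leaves, against 54.0, 61.7, 29.6 and 42.0 CPM in W30 leaves. Without W30 replicate 3, whose 29.6 CPM was the lowest of these, the segment 6 change was 0.34 (adjusted p = 0.153), and 13 of the 16 refits that left out 1 pool lost the call.

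In drought leaves 1 of the 16 tests passed, against 27.7% of the tests of all genes (25.1% to 29.5% by segment): TOGR1 in segment 6 (0.35, SE 0.12, adjusted p = 0.0421), with 26.9, 29.8, 34.1 and 39.1 CPM in D40 leaves, against 21.1, 21.3, 28.3 and 30.3 CPM in D30 leaves. This call was lost in 10 of the 16 refits that left out 1 pool, with adjusted p up to 0.127 (without D40 replicate 4). TOGR1 was higher in D40 than in D30 leaves in 5 of 5 segments (0.15 to 0.35) with TMM, but in segments 3, 4 and 5 the sign turned with library totals (-0.12, -0.07 and -0.06). With library totals none of the 5 segment calls passed, and the TT3.1 change in segment 6 of well-watered leaves was 0.34 (adjusted p = 0.168). For drought 0 of 16 tests passed at 30 °C (1 had an unadjusted p under 0.05, and DESeq2 called 0), against 7.06% for all genes, and 0 of 16 at 40 °C (0 unadjusted, 0 with DESeq2), against 9.15%.

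Ordered by mean level over the 20 groups of treatment and segment, TOGR1 ran from 34.0 CPM in segment 6 of W40 leaves to 21.3 CPM in segment 2 of W30 leaves, a ratio of 1.60. On the deposited FPKM the order was not the same: segment 6 of W30 leaves, at a mean FPKM of 7.37, came next after segment 6 of W40 leaves at 7.43. TT3.1 ran from 68.0 CPM in segment 4 of W40 leaves to 46.8 CPM in segment 6 of W30 leaves, a ratio of 1.45, whereas by mean FPKM segment 3 of D30 leaves was the highest group at 9.19. TT1 ran from 34.5 CPM in segment 4 of W30 leaves to 27.8 CPM in segment 4 of D30 leaves, a ratio of 1.24. For each of the 4 loci, 0 of the 19 steps between neighbours in this order exceeded the larger SD of the 2 groups. Sorting by mean keeps such steps small, and each SD spans both batches. The count therefore does not test whether groups differ.

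ERECTA was near the limit of detection. The 80 libraries held 339 counts of it in all, and 12 libraries had 10 counts or more. The D40 pools had 11, 50, 15 and 14 counts, the W40 pools 0, 8, 0 and 2, the D30 pools 28, 29, 20 and 50, and the W30 pools 90, 14, 4 and 4. Every W40 pool lay below every D40 and every D30 pool and overlapped with the W30 pools. Scaled to the library totals this was 0.0547 CPM in D40 leaves, 0.00560 in W40 leaves, 0.0778 in D30 leaves and 0.0706 in W30 leaves, with 13, 3, 17 and 11 of 20 libraries above 0. A library at 0 allows up to 3 independent fragments, and such limits cover counting error only. Of the nonzero library counts of ERECTA, 93.2% were even, as when both reads of a pair are counted, so the number of independent fragments was smaller still. Counted in reads, the limit for a library at 0 is then higher than 3.

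With edgeR the W40 minus W30 difference of ERECTA had an adjusted p of 0.122 and D40 minus W40 one of 0.129. With DESeq2, W40 against W30 had an adjusted p of 0.0492, and without W40 replicate 2 it was 0.0336 with edgeR. Most of the W30 counts (90 of 112) came from replicate 1, so the level of that group rests on 1 pool. By position, segments 2 to 6 held 132, 93, 56, 24 and 34 counts over 16 libraries each. Of those in segment 2, 42 came from W30 replicate 1 and 28 from D40 replicate 2. Segment 6 minus segment 2 passed the threshold with edgeR in no treatment, with adjusted p of 0.323 in D40, 0.260 in D30 and 0.0642 in W30 leaves. In W40 leaves both segments had 0 counts. Segment 6 had a lower CPM than segment 2 in 10 of 16 pools and a higher one in 1. Segments differed within D40 leaves (adjusted p = 0.0187 for any difference, against 23.3% of all genes), where segment 2 had 5, 8, 8 and 28 counts and segment 5 had 0 in 4 of 4 libraries. The same test gave adjusted p of 0.146 in W40, 0.293 in D30 and 0.210 in W30 leaves, where 32.4%, 16.9% and 23.4% of all genes met the threshold.

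For comparison, a second hand-entered list held 7 other loci described as acting in rice heat tolerance, of which 6 were tested and 1 was not analysed here. In W40 against W30 leaves 3 of the 6 were higher and 2 lower, with changes between -1.73 and 8.62 and a median of 0.60, against a median of -0.08 for all genes, of which 16.3% were called higher and 18.7% lower. In D40 against D30 leaves 3 were higher and 2 lower, with a median of 0.69, against -0.05 for all genes, of which 16.6% were called higher and 17.8% lower. D40 against W30 had 4 higher and 2 lower, against 22.2% and 24.3% of all genes. For drought, 0 of the 6 met the threshold at either temperature with edgeR, against 10.3% of all genes at 30 °C and 14.1% at 40 °C. With 6 loci, a count of 0 is not far from those shares. The list shares 1 locus with the heat shock list, so the 2 lists are not independent. The 12 heat shock loci had median changes of 7.65 in drought and 7.84 in well-watered leaves, against at most 0.34 for TT1, TOGR1 and TT3.1.

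The genes whose levels followed each locus most closely were found by Pearson's r over the 20 group means of batch-adjusted log2(CPM + 0.5), among 12836 genes with a mean of at least 5 CPM. For TOGR1 these were LOC_Os01g08930 (r = 0.96) and LOC_Os02g55940 (r = 0.96), and over the 80 single libraries r was 0.83 and 0.81. For TT3.1 they were LOC_Os04g52870 (r = 0.94) and LOC_Os12g34370 (r = 0.94), with r of 0.82 and 0.87 over libraries. For TT1 they were LOC_Os01g24070 (r = 0.81) and LOC_Os08g10630 (r = 0.81), with r of 0.16 and 0.43 over libraries. The points of each r share libraries, scaling and the heat contrast, and the values only describe likeness of pattern. ERECTA lay below the minimum level and was not compared.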

How the data were processed

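Per the file headers, each library has a column of raw counts, of batch-corrected counts and of batch-corrected FPKM, all deposited by the authors. Tools credited in the submitters' processing notes are featureCounts 2.0.6, HISAT2 2.2.1 and Picard 3.1.0. Neither the build of the genome nor the method of batch correction is given in the sources used here. The batch-corrected values deposited by the authors are estimated counts, rounded here to whole numbers and used only in an alternative, as was the deposited FPKM (limma 3.58.1, offset 0.5, mean above 0.5). Of raw counts from 1 to 20, 76.9% were even, as when both reads of a pair are counted, so counts overstate independent fragments.

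Raw counts were tested in R 4.3.3 with edgeR 4.0.16 (TMM, filterByExpr with minimum count 10 and minimum total 15, quasi-likelihood F tests, Benjamini-Hochberg adjustment over all genes tested, threshold 0.05). For whole leaves the 5 segments were added up within a pool, and a model of treatment plus batch was fitted to 16 pools; segment tests did so on 16 libraries each; tests between segments fitted the leaf pool as a block to 80 libraries. The segments of a pool come from the same leaves per the labels' protocols, and their deviations had a median correlation of 0.81, against -0.61 between pools. Deviations were taken from group means, which by itself pushes values between pools below 0, so -0.61 is no neutral baseline. Segments of a pool also share a batch. The block rests on the protocols. The SE was taken as the size of the log2 change over the root of its F value. All 4 loci passed the whole-leaf filter. The closest libraries of a group differed by a chi-square of 9.57 per degree of freedom over 120 pairs. Alternatives were DESeq2 1.42.0, other scalings and filters, single batches, the replicate block and each pool left out. Scaling to library totals was chosen after seeing the data. The fits were also run on simulated counts with known changes. These were drawn with no batch effect and no correlation between the segments of a pool, so they cannot check the batch and block terms.

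The members and lists were chosen with earlier results of these data known. The lists and markers are locus IDs entered by hand, which no annotation used here could check. The 4 members are named by rule, as are, per member, the 2 genes most like it. The files do not say whether pools came from separate pots, so p-values measure the spread between these pools.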

Additional observations from a re-analysis of the deposited data

Results flagged for a closer look

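The heat response of TT3.1 in well-watered leaves differed between the labelled batches by 0.65 on the log2 scale (batch 2 minus batch 1, adjusted p = 0.00511, edgeR), with 1 W40 pool in batch 1. Over the refits that left out 1 pool it lay between 0.57 and 0.73; a refit without that W40 pool could not be made. With 1 such pool, the batch and the pool cannot be told apart.

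A single sample stood apart from the other 3 of its group in 13 of 96 groups of 4, by a Dixon ratio above its 95% critical value. Chance alone would give about 4.8 in independent groups of continuous values. ERECTA counts near 0 are not such values: where the other 3 libraries have 0 counts, the ratio is always 1. Pool sums also share libraries with their segments, so no excess over chance can be read from these numbers. In whole leaves ERECTA was high in 1 D40 pool (0.143 CPM) and 1 W30 pool (0.229 CPM). Among single libraries ERECTA was high in 1 of segment 2 (0.343 CPM) in D40 leaves, in 1 of segment 4 (0.0412 CPM) in W40 leaves, and in W30 leaves in 1 each of segment 2 (0.489 CPM), segment 5 (0.198 CPM) and segment 6 (0.0830 CPM); in 3 of these groups the other 3 libraries had 0 counts. TT1 had a high library in segment 2 of D40 leaves (34.5 CPM) and segment 5 of W30 leaves (36.3 CPM), and a low one in segment 6 of W40 leaves (29.3 CPM) and segment 2 of D30 leaves (27.7 CPM). TOGR1 had a low library in segment 2 of W40 leaves (24.1 CPM), and TT3.1 a high one in segment 3 of D40 leaves (65.4 CPM).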

How the results depend on the processing

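Counts below are of members called, out of 4, or of segment tests called, out of 16, unless stated otherwise; log2 values follow the TMM scale except where another is named. With RLE size factors no such count moved by more than 1.5 times. Scaled to library totals, 0 members were called for heat in well-watered leaves (2 with TMM), 0 for heat in drought leaves (1 with TMM) and 0 for D40 against W30 (1 with TMM), and 0 segment tests for heat in either soil water (4 and 1 with TMM). On that scale TT1, TOGR1 and TT3.1 reversed for heat in drought leaves (-0.19, -0.023 and -0.19) and TT3.1 for D40 against W30 (-0.067). There 1 member (TOGR1) was called for a treatment-dependent profile. For a batch difference in the heat response 2 were called, TT3.1 in well-watered leaves and TT1 in drought leaves (-0.53, adjusted p = 0.0102). In that drought-leaf difference TOGR1 (-0.29) and TT3.1 (-0.35) had reversed sign. The median of all genes there was -0.50, close to the TT1 value. With limma on FPKM, 0 members were called for each of the same 3 whole-leaf comparisons, and the reversed values were -0.10 for TT1, -0.0072 for TOGR1 and -0.13 for TT3.1 in D40 against D30 and -0.043 for TT3.1 in D40 against W30. Without a batch term, 0, 0 and 0 members were called in those comparisons. In batch 1 alone 0, 0 and 0 were called, and reversed values were 0.11 for TT1 and -0.12 for TT3.1 in W40 against W30, -0.25 for TT1 and 0.21 for TT3.1 in D40 against W40, and 0.18 for the TT3.1 interaction. In batch 2 alone 2 members were called for D40 against W30, 1 (TT3.1, -0.32) for D40 against W40, with 3 segment tests, and 1 (TT3.1, -0.46) for the interaction. Of the 25484 genes tested there, 16190 were called for D40 against W30, 12265 for D40 against W40 and 4281 for the interaction. Reversed values in batch 2 were -0.071 for TOGR1 at 30 °C and 0.0061 at 40 °C for drought, and 0.077 for its interaction. For TT1 they were 0.10 in D40 against W30, and 0.13, 0.27 and 0.10 in segment 6 minus segment 2 of W30, D30 and D40 leaves. Batch-corrected counts gave 1 member for heat in well-watered leaves, 1 segment test (ERECTA) for D40 against W40, and a reversed 0.039 for TT1 in D40 against W30. Without the filter on low counts, 1 and 0 members were called for heat in well-watered and drought leaves, with 2 and 0 segment tests, and 1 segment test for D40 against W40. DESeq2 called 2 segment tests for heat in drought leaves. For the segment, profile and batch-difference tests, the share of all genes called in each alternative is not given here. Those counts therefore say nothing particular about the members. The cause of these shifts was not tested.

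Over all genes, counts also moved by more than 1.5 times: without a batch term 5734 (8801 with it) for W40 against W30, 4510 (8646) for D40 against D30, 638 (2580) for D30 against W30, 1185 (3547) for D40 against W40 and 7624 (11683) for D40 against W30. DESeq2 called 4251 for D30 against W30, 5610 for D40 against W40 and 465 for the interaction, where edgeR called 0. Batch 2 alone gave 13478, 13082, 8458 and 12265 for those first 4 comparisons and 4281 for the interaction; batch 1 alone gave 3308, 5399, 1728 and 1, with 5952 for D40 against W30 and 123 for the interaction. limma on FPKM gave 2203 for D40 against W40 and 247 for the interaction, batch-corrected counts 171, library totals 9 and no filter 4 for the interaction, and the replicate block 1064 for D30 against W30 and 1726 for D40 against W40. With 1 pool left out, counts ranged from 6174 to 9836 for W40 against W30, 6351 to 9500 for D40 against D30, 1166 to 3183 for D30 against W30, 1174 (without D40 replicate 4) to 6092 (without W40 replicate 1) for D40 against W40, 9145 to 12455 for D40 against W30 and 0 to 769 (without W40 replicate 1) for the interaction. The count for D30 against W30 was more than 1.5 times lower without W30 replicate 3 (1356) or 4 (1166), or D30 replicate 1 (1678), 2 (1702), 3 (1708) or 4 (1496). That for D40 against W40 was so without W40 replicate 2 (2136), 3 (1481) or 4 (1366), or D40 replicate 3 (1551) or 4 (1174).

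Same-numbered pools of different treatments had correlated deviations with a median r of 0.50 but as low as -0.54, against a median of -0.41 for different numbers. These deviations were taken from treatment means. Where same numbers correlate, that pushes the values for different numbers below 0, so -0.41 is no neutral baseline. Of 16 pools, 8 correlated best with their own number. Replicate numbers largely follow the labelled batches, so pairing by number and batch cannot be told apart, and the number was fitted only in an alternative. With the replicate block, 1 member was called for heat in well-watered leaves, 0 for heat in drought leaves and 0 for D40 against W30, and 0 segment tests for heat in drought leaves. Between segments, with no replicate block for the leaf pool, 2 of 16 tests were called, against 4 with it. When each pool was left out in turn, calls ranged from 0 to 2 for heat in well-watered leaves, 0 to 1 for heat in drought leaves, 0 to 1 for D40 against W40, 0 to 2 for D40 against W30, 1 to 7 and 0 to 1 for segment tests of heat in well-watered and drought leaves, 0 to 1 for segment tests of D40 against W40, 3 to 5 of 16 between segments, and 1 to 3 of 8 for batch differences. Members whose sign turned ranged from -0.032 to 0.079 (TOGR1, D30 against W30), -0.026 to 0.17 (TT1) and -0.075 to 0.024 (TOGR1) in D40 against W40, -0.087 to 0.0072 (TT1, D40 against W30), -0.19 to 0.0057 (W30), -0.31 to 0.0050 (D30) and -0.0059 to 0.10 (W40) for TT1 and -0.014 to 0.11 (W40) for TT3.1 in segment 6 minus segment 2, and -0.048 to 0.12 for the batch difference of TT3.1 in drought leaves. TOGR1 in D40 against W30 kept its call in 12 of 16 refits. It lost it without W30 replicate 1 (adjusted p = 0.0632), W30 replicate 4 (0.0526), D40 replicate 2 (0.0561) or D40 replicate 4 (0.0941). TOGR1 in W40 against W30 lost its call without W30 replicate 4 (0.0538) or W40 replicate 2 (0.0619). Depth limits ERECTA: its counts are too few for a fold change to be given.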
